A study of Homo sapiens with 6 samples.

Results

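The 46 genes described here encode antiviral effector proteins that interferon induces. They form a list of named genes, and a gene's level is the sum of the counts of all its RefSeq transcripts in the deposited count table. All 46 were found among the 23527 genes with a symbol in that table. The series measured polyadenylated RNA of human dermal fibroblasts from 1 primary line in 3 groups of 2 libraries each. The first group, VP64-MyoD, carried a doxycycline-inducible (Tet-ON) lentivirus for mouse MyoD with the VP64 transcriptional activation domain joined to its N-terminus by a serine-glycine linker, co-expressed with the red fluorescent protein dsRed-Express2 through a T2A peptide. The second group, WT-MyoD, carried the inducible lentivirus for unmodified mouse MyoD. MyoD is a transcription factor that can turn fibroblasts toward skeletal muscle. Cells of both groups were selected with puromycin, received doxycycline at 3 µg/mL and were harvested after 10 days. The reference was untreated fibroblasts, and the labels do not say whether these were transduced, selected or given doxycycline, so that MyoD, virus, selection and drug cannot be told apart in any comparison with them.

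Interferons are secreted proteins that warn cells of virus. A type I interferon binds the receptor IFNAR1 and IFNAR2, the kinases JAK1 and TYK2 then become active, and STAT2 and IRF9 form part of a factor that binds the interferon-stimulated response element in promoters. IRF family factors that cytosolic RNA and DNA sensors activate can bind the same element without interferon. The effectors induced in this way detect, bind, cut or modify viral nucleic acids and proteins, or act on membranes, and fibroblasts are a classical cell in which this response was studied.

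The response element was looked for in the RefSeq promoter windows of the members (GRCh38.p14), each of 300 bases from 250 before to 50 after a gene's start. Its core was taken as GAAANNGAAA on either strand, which reads TTTCNNTTTC on the other, and overlapping matches were counted. Of the 46 members, 40 had a window, and 30 of these, or 75.0%, held the core in at least 1 of their windows, against 4.38% of all 27305 genes with a window. The entries missing were those of OASL, OAS2, MX2, TRIM22, IFIT2 and USP18. The stretches below lie upstream of the start site and are given 5′ to 3′ on the strand of the gene, with the matched bases in capitals. The first set comes from members with lower RNA in VP64-MyoD than in WT-MyoD cells and shows how the core is repeated or inverted.
ISG15 (chr1:1013359-1013424, + strand): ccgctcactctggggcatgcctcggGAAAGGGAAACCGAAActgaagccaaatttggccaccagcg
OAS3 (chr12:112938306-112938365, + strand): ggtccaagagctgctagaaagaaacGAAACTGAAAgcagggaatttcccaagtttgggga
IFIT1 (chr10:89392482-89392554, + strand): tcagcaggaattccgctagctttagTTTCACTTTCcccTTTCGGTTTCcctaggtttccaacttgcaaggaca
IFIT5 (chr10:89414498-89414567, + strand): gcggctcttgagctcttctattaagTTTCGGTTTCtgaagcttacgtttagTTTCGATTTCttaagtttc
IFITM3 (chr11:320861-320937, - strand): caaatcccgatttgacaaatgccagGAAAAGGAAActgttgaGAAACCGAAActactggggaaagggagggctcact
BST2 (chr19:17405720-17405785, - strand): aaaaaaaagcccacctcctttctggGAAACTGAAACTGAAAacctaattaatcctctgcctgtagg
IFI6 (chr1:27672251-27672373, - strand): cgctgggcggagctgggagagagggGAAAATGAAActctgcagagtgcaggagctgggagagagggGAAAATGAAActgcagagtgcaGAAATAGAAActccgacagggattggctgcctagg
EPSTI1 (chr13:42992257-42992316, - strand): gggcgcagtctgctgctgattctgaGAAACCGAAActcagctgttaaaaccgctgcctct
SAMD9 (chr7:93118081-93118140, - strand): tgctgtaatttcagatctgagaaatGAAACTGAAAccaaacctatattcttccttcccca
TRIM14 (chr9:98119223-98119273, - strand): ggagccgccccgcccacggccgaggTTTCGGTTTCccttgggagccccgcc
The second set comes from the 2 members with a window and a match whose RNA was instead higher in VP64-MyoD than in WT-MyoD cells.
GBP1 (chr1:89065301-89065360, - strand): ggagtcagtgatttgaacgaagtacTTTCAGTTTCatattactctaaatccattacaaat
ISG20 (chr15:88638922-88638981, + strand): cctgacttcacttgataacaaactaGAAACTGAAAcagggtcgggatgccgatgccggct
ISG15 and BST2 held pairs of overlapping cores, IFI6 held 3 separate ones, and IFIT1, IFIT5, TRIM14 and GBP1 held theirs on the opposite strand. PARP9 and DTX3L, which start next to each other and run apart, each had 1 match. That of DTX3L began 6 bases upstream and lay across its start. That of PARP9 began 41 bases upstream in 1 of its windows. Whether these are the same site was not tested. The members whose windows held no match were CMPK2, CXCL11, HERC6, IFI35, OAS1, SAMD9L, SP110, UBE2L6, XAF1 and ZC3HAV1, which says only that these letters are not in the windows searched. A core was thus present in members that differed in either direction between the MyoD forms and in GBP3, which did not pass the test. The E-box CAGCTG, a sequence that MyoD binds, was searched after the values were seen and stood in the windows of 13 of the 40 members (32.5%), against 21.1% of all genes with a window.

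**Figure D1:**
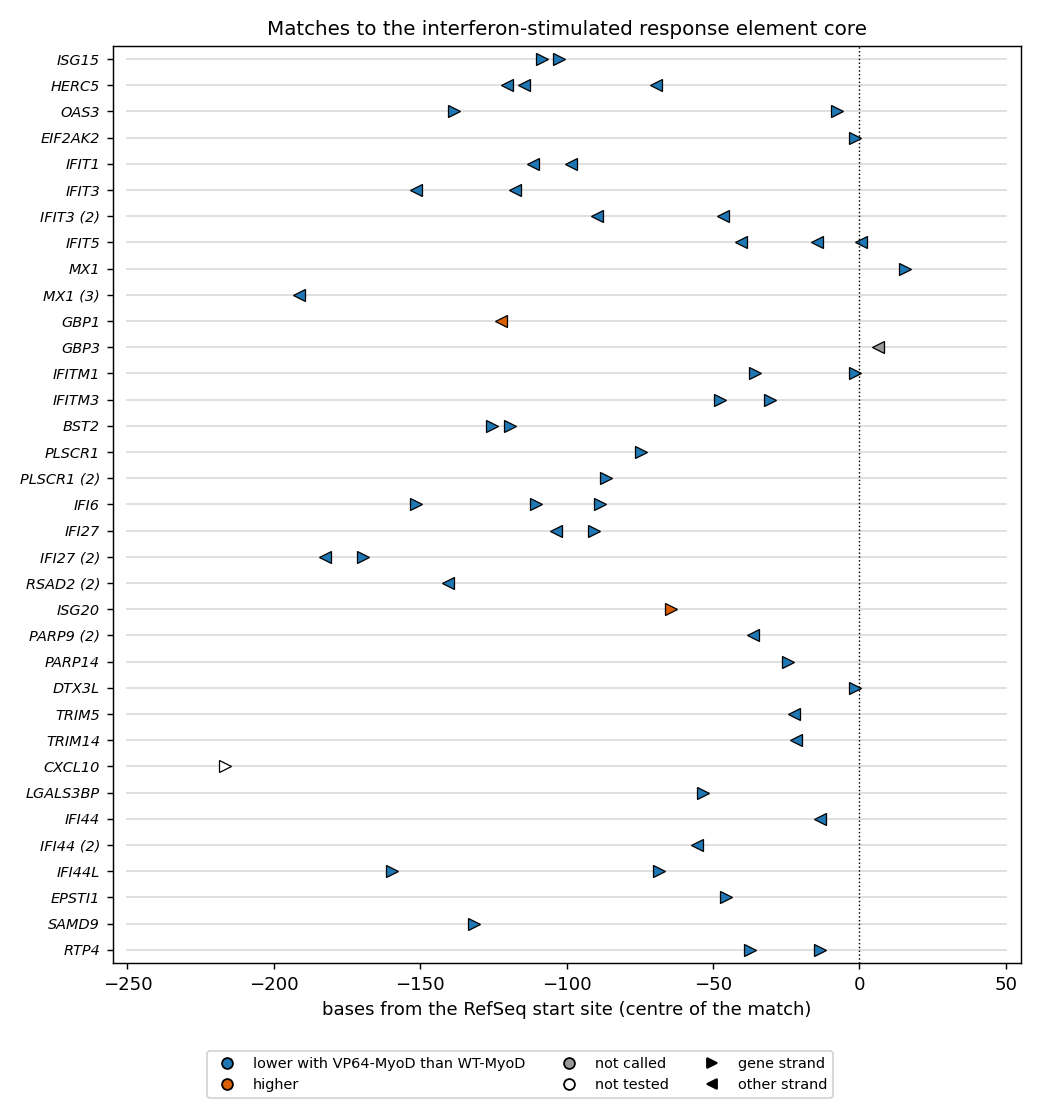
Position of each match to the response element core in the promoter windows that held one, with the distance of the match's centre from the RefSeq start site in bases on the horizontal axis and 1 row per window (a number in brackets marks a further window of the same gene). Triangles point right for the gene's strand and left for the other strand, and colour gives the call for VP64-MyoD against WT-MyoD; matches of members called lower, called higher and not called lie side by side, most of them before the start.

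The libraries held between 40997586 and 53804224 counts, and each read pair was counted as 2. Levels are given as CPM, counts scaled to the size of the library, after TMM normalization, and a gene is called where the Benjamini-Hochberg adjusted p of edgeR's two-sided quasi-likelihood test over all 15771 features tested was under 0.05. Standard errors (SE) are on the log2 scale, with n = 2 libraries per group throughout. As a check of the labels, the row of the mouse MyoD transgene held 5372 and 5056 counts in the VP64-MyoD libraries, 42900 and 41736 in the WT-MyoD libraries, and 254 and 46 in the untreated ones. All 8 muscle markers were higher in VP64-MyoD than in WT-MyoD cells and higher in both than in untreated cells. The 9 fibroblast markers, COL1A1 and COL1A2 among them, were detected in every library, with summed levels of 30384 to 32945 CPM in VP64-MyoD, 29038 to 33133 CPM in WT-MyoD and 41719 to 44175 CPM in untreated cells. In such bulk samples fewer cells of a type and less RNA per cell cannot be told apart. Transgene counts, muscle marker RNA and the form of MyoD thus differed together between the MyoD groups, and cannot be told apart in the differences below.

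Of the 46 members, 44 passed the filter on low counts, and the other two were CXCL10 and CXCL11. With WT-MyoD, 39 of the 44 were higher than in untreated cells, 2 (GBP1 and IFIT2) were lower and 3 (GBP3, ISG20 and ZC3HAV1) did not pass the test. Over all features tested, 25.7% were higher and 22.2% lower in this comparison. The median log2 fold change of the 44 was 1.37, against 0 over all features. With VP64-MyoD, 21 of the 44 were higher than in untreated cells, 11 were lower and 12 did not pass, against 33.0% higher and 30.0% lower over all features. The median of the 44 was 0.49, against 0.029 over all features.

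Set directly against each other, VP64-MyoD cells had lower RNA of 38 of the 44 members than WT-MyoD cells and higher RNA of 3, namely USP18, ISG20 and GBP1. The remaining 3, GBP3, XAF1 and ZC3HAV1, did not pass the test. Over all features, 28.2% were lower and 28.3% higher. The median log2 fold change of the 44 was -1.27, against 0.015 over all features. The CPM of the 46 members added up to 1283 and 1207 in VP64-MyoD libraries, 2504 and 2558 in WT-MyoD libraries and 1193 and 1248 in untreated libraries. The summed level in VP64-MyoD cells was thus near that in untreated cells, while the WT-MyoD sums were above both. Abundant members such as IFITM3 and ZC3HAV1 weigh heavily in these sums, and rises and falls of single members can cancel in them. The sums therefore do not show that each member was near its untreated level with VP64-MyoD, where 21 were called higher and 11 lower. Of the 3 higher members, GBP1 and ISG20 were no longer called without VP64-MyoD replicate 1, without VP64-MyoD replicate 2 or without WT-MyoD replicate 2, which left 1.

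**Figure D2:**
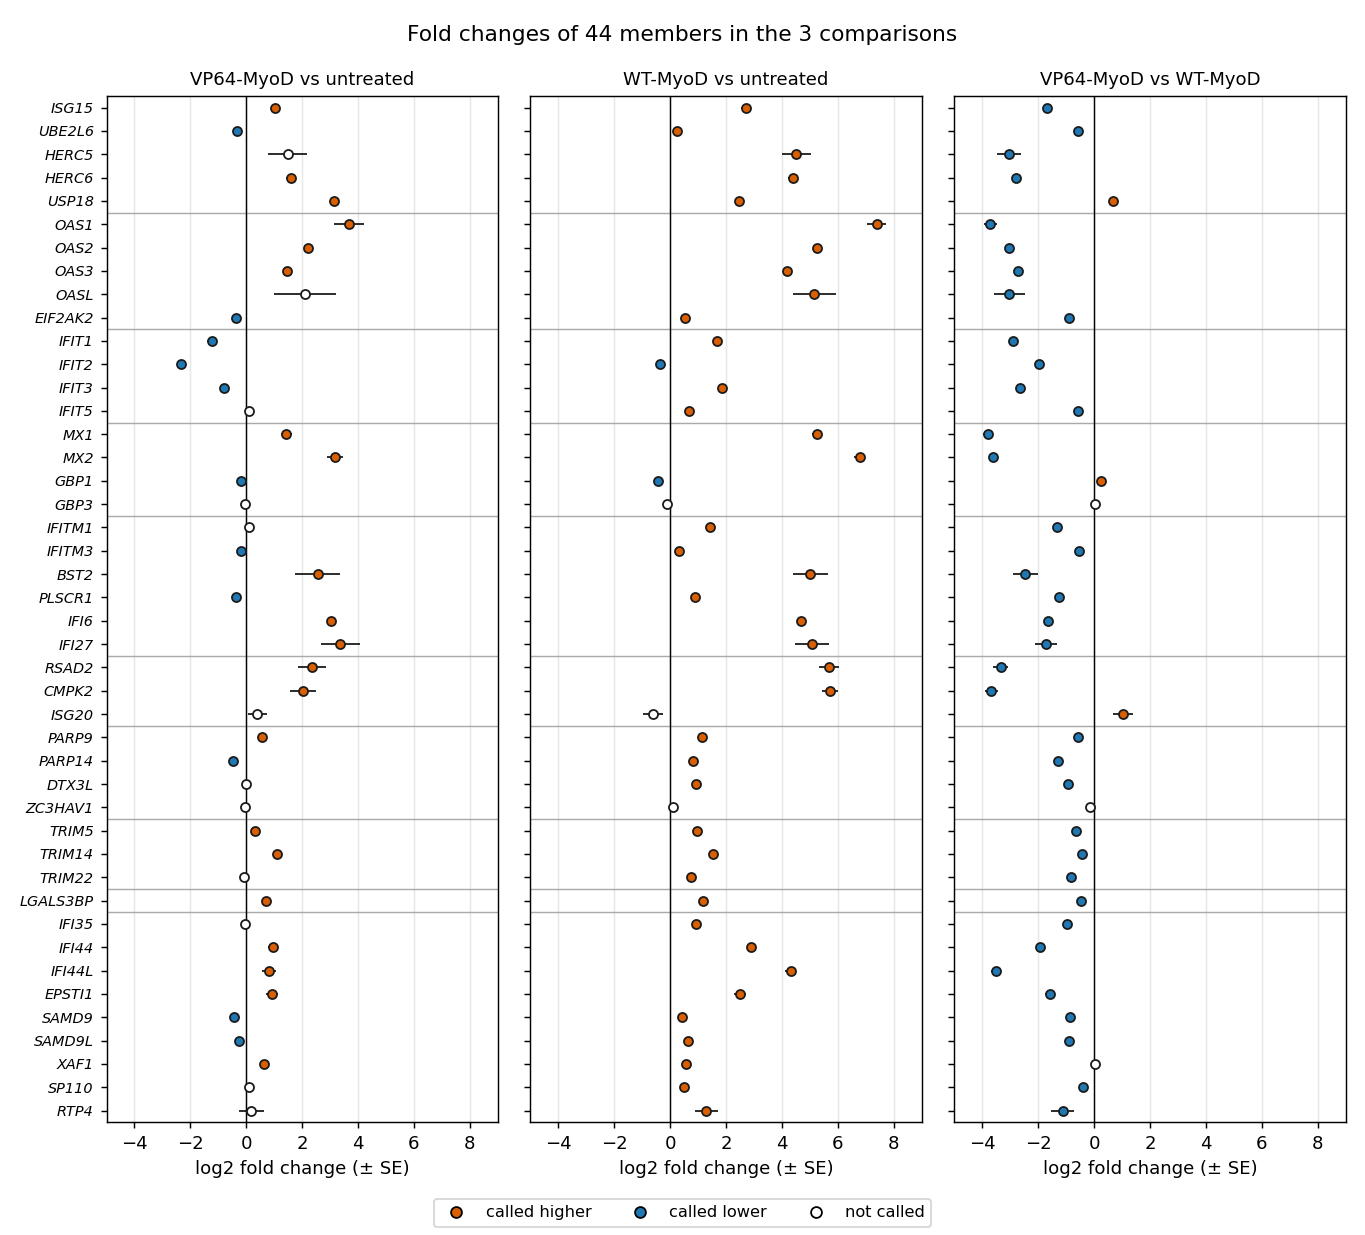
Log2 fold change (horizontal axis, ± SE) of the 44 members tested in the 3 comparisons, in rows grouped by role, with colour for the call at an adjusted p under 0.05. In the right panel 38 members lie below 0 and are called, while in the left panel called members lie on both sides of 0.

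A set of 8 members, BST2, CMPK2, HERC5, IFI27, MX2, OAS1, OASL and RSAD2, passed the filter through the MyoD groups and not through the untreated libraries, so a rise in them was partly set by the filter. HERC5 and OASL passed it through WT-MyoD alone, so their lower level in VP64-MyoD than in WT-MyoD cells was partly set by the filter too. Among the 36 members that passed it in the untreated libraries alone, 15 (41.7%) were higher and 11 (30.6%) lower with VP64-MyoD than in untreated cells (median 0.10), shares near the 33.0% and 30.0% of all features. With WT-MyoD, 31 of the 36 (86.1%) were higher and 2 (5.56%) lower (median 0.95), against 25.7% and 22.2% of all features. In VP64-MyoD relative to WT-MyoD cells, 3 (8.33%) were higher and 30 (83.3%) lower (median -0.93), against 28.3% and 28.2% of all features.

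The calls of the 3 comparisons formed a few patterns. The shares of all features with the same patterns were not computed, so the counts below are a description only. In 19 members, among them ISG15, OAS1, OAS2, OAS3, MX1, MX2, IFI6 and RSAD2, RNA was higher in both MyoD groups than in untreated cells and lower in VP64-MyoD than in WT-MyoD cells. These 19 include BST2, CMPK2, IFI27, MX2, OAS1 and RSAD2, whose rise over untreated cells was partly set by the filter. In 9 members, UBE2L6, EIF2AK2, IFIT1, IFIT3, IFITM3, PLSCR1, PARP14, SAMD9 and SAMD9L, RNA was lower than in untreated cells with VP64-MyoD and higher with WT-MyoD. A further 9, HERC5, OASL, IFIT5, IFITM1, DTX3L, TRIM22, IFI35, SP110 and RTP4, were higher with WT-MyoD alone and not called with VP64-MyoD, and were lower in VP64-MyoD than in WT-MyoD cells in the direct test. USP18 was higher in VP64-MyoD than in WT-MyoD cells and higher in both than in untreated cells, and XAF1 was higher in both with no difference called between them.

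ISG15 is a ubiquitin-like protein that is attached to other proteins by the E2 enzyme UBE2L6 and the ligase HERC5, and removed by the protease USP18, which also blocks signalling at IFNAR2. HERC6, a relative of HERC5, performs the ligase step in mice. ISG15 had 12.3 and 7.98 CPM in VP64-MyoD libraries, 32.5 and 31.5 CPM in WT-MyoD libraries, and 5.29 and 4.54 CPM in untreated libraries. The 3 groups did not overlap, with a log2 fold change of -1.67 ± 0.14 for VP64-MyoD over WT-MyoD (SE, edgeR adjusted p = 8.2e-08). HERC6 had 7.14 and 5.15 CPM in VP64-MyoD, 41.8 and 42.4 CPM in WT-MyoD and 2.25 and 1.77 CPM in untreated libraries, again with no overlap and a fold of -2.78 ± 0.12 (edgeR adjusted p = 4.8e-11). HERC5, singled out after its values were seen, was rare, at 0.34 and 0.15 CPM in VP64-MyoD, 1.66 and 2.38 CPM in WT-MyoD and 0.04 and 0.14 CPM in untreated libraries. HERC5 passed the filter on low counts through WT-MyoD alone, so a lower level with VP64-MyoD was partly set by that filter. It was lower in VP64-MyoD than in WT-MyoD cells (-3.03 ± 0.43, and -3.69 without VP64-MyoD replicate 1), and its difference from untreated cells was not called with VP64-MyoD (edgeR adjusted p = 0.081), though it was with no filter on low counts (adjusted p = 0.0419) and without VP64-MyoD replicate 2 (adjusted p = 0.0372). UBE2L6, at 33.8 and 32.4 CPM in VP64-MyoD, 52.8 and 45.1 CPM in WT-MyoD and 41.1 and 41.9 CPM in untreated libraries, lay on either side of its untreated level. It was lower by a log2 of -0.33 ± 0.08 with VP64-MyoD and higher by 0.24 ± 0.08 with WT-MyoD, and the second call was lost without WT-MyoD replicate 1, untreated replicate 1 or untreated replicate 2 (adjusted p between 0.0882 and 0.204).

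USP18 differed between the MyoD forms in the other direction from ISG15, UBE2L6, HERC5 and HERC6. Its levels, singled out after they were seen, were 31.3 and 28.6 CPM in VP64-MyoD, 18.6 and 18.7 CPM in WT-MyoD and 3.29 and 3.5 CPM in untreated libraries, with no overlap. The log2 fold change was 0.68 ± 0.08 for VP64-MyoD over WT-MyoD (edgeR adjusted p = 5.9e-06), 3.14 ± 0.10 for VP64-MyoD and 2.46 ± 0.10 for WT-MyoD over untreated cells. The authors' deposited table, made from the same libraries, gives the same log2 fold changes over untreated cells, 3.14 for VP64-MyoD and 2.46 for WT-MyoD. USP18 has a near-identical copy, USP41, and how reads of the copy were counted is uncertain. In units of level per length (GENCODE transcript lengths), USP18 stood at 14.1 CPM per kb in VP64-MyoD cells, close to ISG15 at 15.9 CPM per kb, whereas in WT-MyoD cells it stood at 8.77 and ISG15 at 50.2 CPM per kb.

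The synthetases OAS1, OAS2 and OAS3 sense double-stranded RNA and make 2-5A, which activates RNase L. OASL lacks this activity and enhances RIG-I signalling, and EIF2AK2 (PKR) phosphorylates the initiation factor eIF2α when it binds double-stranded RNA. All 5 were higher with WT-MyoD than in untreated cells and lower in VP64-MyoD than in WT-MyoD cells. Of all features, 25.7% were higher in the first comparison and 28.2% lower in the second. OAS1 and OASL passed the filter through the MyoD groups, so their rise was partly set by it. OASL passed it through WT-MyoD alone, so its lower level in VP64-MyoD than in WT-MyoD cells was partly set by the filter too. OAS2 had 9.46 and 8.43 CPM in VP64-MyoD, 72.4 and 76.5 CPM in WT-MyoD and 1.88 and 2 CPM in untreated libraries. WT-MyoD cells thus held 8.34 times the OAS2 RNA of VP64-MyoD cells (log2 fold change -3.06 ± 0.09 for VP64-MyoD over WT-MyoD, edgeR adjusted p = 2.9e-13), and VP64-MyoD cells 4.59 times that of untreated cells. OAS3 had 34 and 24.9 CPM in VP64-MyoD, 190 and 204 CPM in WT-MyoD and 11.4 and 9.91 CPM in untreated libraries. OAS1, singled out after its values were seen, had 0.86 and 0.84 CPM in VP64-MyoD, 12.3 and 9.97 CPM in WT-MyoD and 0.12 and 0.00 CPM in untreated libraries. With 3 read pairs in both untreated libraries together, its ratio to untreated cells was 13.3 with VP64-MyoD (exact 95% interval 4.25 to 67, counting error only) and 177 with WT-MyoD (60.3 to 861). OASL, also singled out for its low counts, had 5 read pairs in the VP64-MyoD libraries, 42 in the WT-MyoD libraries and 1 in the untreated libraries, so that its ratio to untreated cells with VP64-MyoD, 4.75 (0.531 to 224), was not distinguishable from 1 at this depth. EIF2AK2 moved within a narrow range, at 65.9 and 63 CPM in VP64-MyoD, 106 and 135 CPM in WT-MyoD and 80.9 and 85.1 CPM in untreated libraries. Its 3 groups did not overlap, and it was lower than untreated by a log2 of -0.36 ± 0.09 with VP64-MyoD (edgeR adjusted p = 0.0024).

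IFIT proteins bind viral RNA by its 5′ end and block its translation, and IFIT1, IFIT2 and IFIT3 form a complex. Of the 4, 3 were lower with VP64-MyoD than in untreated cells, against 30.0% of all features. IFIT5 was not called (log2 0.09 ± 0.08). IFIT1 had 10.2 and 6.11 CPM in VP64-MyoD, 62.3 and 59.3 CPM in WT-MyoD and 18.6 and 19.7 CPM in untreated libraries. Its log2 fold change over untreated cells was -1.24 ± 0.15 with VP64-MyoD (edgeR adjusted p = 3.8e-06) and 1.67 ± 0.14 with WT-MyoD (adjusted p = 4.7e-08). IFIT3 had 15.6 and 13.9 CPM in VP64-MyoD, 95.5 and 88.7 CPM in WT-MyoD and 24.4 and 26.3 CPM in untreated libraries. In both genes the untreated level lay between the MyoD groups, and the WT-MyoD level was 7.52 times the VP64-MyoD level for IFIT1 and 6.23 times for IFIT3. IFIT2 had 7.35 and 6.22 CPM in VP64-MyoD, 25.9 and 26.9 CPM in WT-MyoD and 33.7 and 34.6 CPM in untreated libraries, and so was highest in untreated cells. It had the lowest fold change over untreated cells of any member with VP64-MyoD (-2.33 ± 0.09, edgeR adjusted p = 6.8e-12), and was also lower with WT-MyoD (-0.37 ± 0.08, adjusted p = 0.0017). Exons of LIPA, a lysosomal lipase gene, overlap IFIT2 on the opposite strand, and since the libraries do not mark strand their reads cannot be told apart there. LIPA had 41.5 and 46.2 CPM in VP64-MyoD, 69.3 and 58.8 CPM in WT-MyoD and 69.3 and 63.6 CPM in untreated libraries, so that it was also lowest in VP64-MyoD cells, and its part in the IFIT2 values was not tested. The authors' deposited table lists 5 transcripts of IFIT1, at log2 fold changes between -1.38 and -1.01 for VP64-MyoD and between 1.63 and 1.71 for WT-MyoD over untreated cells.

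MX1 and MX2 are dynamin-like GTPases that trap viral nucleocapsids, and GBP1 and GBP3 are guanylate-binding proteins that interferon-gamma induces strongly. MX1 had 12.3 and 7.37 CPM in VP64-MyoD, 136 and 139 CPM in WT-MyoD and 3.93 and 3.27 CPM in untreated libraries. MX2 had 1.68 and 1.45 CPM in VP64-MyoD, 19.7 and 18.3 CPM in WT-MyoD and 0.16 and 0.18 CPM in untreated libraries. Neither gene overlapped between groups, and the MX1 value of -3.81 ± 0.15 for VP64-MyoD over WT-MyoD was the lowest of any member (edgeR adjusted p = 9.7e-12). Relative to untreated cells the log2 fold change was 1.44 ± 0.19 with VP64-MyoD and 5.24 ± 0.17 with WT-MyoD for MX1, and 3.17 ± 0.28 with VP64-MyoD and 6.78 ± 0.20 with WT-MyoD for MX2. MX2 had 8 counts in each untreated library and passed the filter through the MyoD groups, so its rise was partly set by it. The guanylate-binding proteins did not move with MX1 and MX2. GBP1 had 41 and 41.5 CPM in VP64-MyoD, 37 and 33.1 CPM in WT-MyoD and 46.5 and 47.7 CPM in untreated libraries. It was lower than untreated by -0.42 ± 0.07 with WT-MyoD (edgeR adjusted p = 0.00017) and by -0.19 ± 0.07 with VP64-MyoD (adjusted p = 0.031), and the call with VP64-MyoD was lost without any 1 of the VP64-MyoD or untreated libraries (adjusted p between 0.0846 and 0.144). Its higher level in VP64-MyoD than in WT-MyoD cells, 0.23 ± 0.07, was lost without either VP64-MyoD library or without WT-MyoD replicate 2 (adjusted p between 0.0573 and 0.0948). GBP3, singled out as 1 of the few members not called, had 42.4 and 43.4 CPM in VP64-MyoD, 44.5 and 38.9 CPM in WT-MyoD and 43.9 and 45.9 CPM in untreated libraries. The WT-MyoD libraries overlapped both other groups, and GBP3 was called lower with WT-MyoD than untreated without WT-MyoD replicate 1 (-0.21, adjusted p = 0.023).

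Among the membrane proteins, IFITM1 and IFITM3 hinder fusion of viral and cell membranes, BST2 (tetherin) holds budding virions at the surface, and PLSCR1 moves phospholipids across the membrane. IFI6 protects endoplasmic reticulum membranes from flavivirus replication, and IFI27 is a small membrane protein much used as a marker of interferon exposure. All 6 were higher with WT-MyoD than in untreated cells and lower in VP64-MyoD than in WT-MyoD cells. Of all features, 25.7% were higher in the first comparison and 28.2% lower in the second. BST2 and IFI27 passed the filter through the MyoD groups, so their rise was partly set by it. IFI6 had 30.4 and 22.6 CPM in VP64-MyoD, 85.2 and 79.4 CPM in WT-MyoD and 3.45 and 2.95 CPM in untreated libraries. The groups did not overlap, and at 8.22 times its untreated level IFI6 was among the members that lay well above untreated cells with VP64-MyoD. IFITM1 had 21.7 and 21 CPM in VP64-MyoD, 54.7 and 51.9 CPM in WT-MyoD and 20.3 and 19.3 CPM in untreated libraries, so that it differed from untreated cells with WT-MyoD (1.43 ± 0.07, edgeR adjusted p = 2.1e-10) and was not called with VP64-MyoD (0.11 ± 0.08, adjusted p = 0.24). IFITM3 had 149 and 138 CPM in VP64-MyoD, 205 and 209 CPM in WT-MyoD and 159 and 170 CPM in untreated libraries. Its fall with VP64-MyoD, -0.20 ± 0.06 relative to untreated cells (adjusted p = 0.013), was lost without VP64-MyoD replicate 2 (adjusted p = 0.179) or untreated replicate 2 (adjusted p = 0.146). IFITM1 and IFITM3 are near-identical over part of their length, and reads between them may be split. PLSCR1 had 15.9 and 14.5 CPM in VP64-MyoD, 37.8 and 34.9 CPM in WT-MyoD and 18.5 and 20.8 CPM in untreated libraries, lowest with VP64-MyoD and without overlap (-0.37 ± 0.09 relative to untreated cells, adjusted p = 0.0023). BST2 and IFI27, singled out for their low counts, had 2 read pairs each in the untreated libraries together. Their ratios to untreated cells were 6.17 (exact 95% interval 1.4 to 56.3) with VP64-MyoD and 34.6 (9.23 to 291) with WT-MyoD for BST2, and 10.9 (2.7 to 95.5) with VP64-MyoD and 36 (9.63 to 303) with WT-MyoD for IFI27. The BST2 call with VP64-MyoD was lost without VP64-MyoD replicate 1 (adjusted p = 0.0508) or untreated replicate 2 (adjusted p = 0.0834).

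RSAD2 (viperin) makes a chain-terminating nucleotide from CTP, its neighbour CMPK2 is a mitochondrial nucleotide kinase, and ISG20 is a nuclease that degrades single-stranded RNA. RSAD2 had 0.47 and 0.42 CPM in VP64-MyoD, 4.94 and 4.09 CPM in WT-MyoD and 0.12 and 0.05 CPM in untreated libraries. CMPK2 had 0.43 and 0.46 CPM in VP64-MyoD, 5.83 and 5.64 CPM in WT-MyoD and 0.08 and 0.14 CPM in untreated libraries. WT-MyoD cells held 10.1 times the RSAD2 RNA and 12.8 times the CMPK2 RNA of VP64-MyoD cells, and neither gene overlapped between groups. Their exons overlap on opposite strands, so reads in the shared stretch cannot be assigned to one of them. ISG20, singled out as 1 of the 3 members higher in VP64-MyoD than in WT-MyoD cells, had 0.99 and 0.92 CPM in VP64-MyoD, 0.49 and 0.44 CPM in WT-MyoD and 0.84 and 0.59 CPM in untreated libraries. Its log2 fold change was 1.02 ± 0.36 (edgeR adjusted p = 0.024), and was no longer called by DESeq2 (adjusted p = 0.0649) or without any 1 of the VP64-MyoD or WT-MyoD libraries (adjusted p between 0.055 and 0.11).

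PARP9 and PARP14 belong to the ADP-ribosyltransferase family, and DTX3L is the ubiquitin ligase that partners PARP9. ZC3HAV1 is the zinc finger antiviral protein, which binds CpG-rich RNA. DTX3L had 59 and 57.7 CPM in VP64-MyoD, 104 and 120 CPM in WT-MyoD and 57.4 and 59.3 CPM in untreated libraries, so that the VP64-MyoD and untreated libraries overlapped. PARP14 had 58.6 and 59.3 CPM in VP64-MyoD, 125 and 163 CPM in WT-MyoD and 77.8 and 86.3 CPM in untreated libraries, and was lower than untreated with VP64-MyoD (-0.48 ± 0.10, edgeR adjusted p = 0.00057). PARP9 was higher in both groups, by 0.58 ± 0.07 with VP64-MyoD and 1.15 ± 0.07 with WT-MyoD, although its exons overlap those of DTX3L on the opposite strand. ZC3HAV1, singled out as not called, had 115 and 113 CPM in VP64-MyoD, 120 and 134 CPM in WT-MyoD and 116 and 120 CPM in untreated libraries. Its difference between VP64-MyoD and WT-MyoD cells, -0.16 ± 0.07 (adjusted p = 0.051), lay at the threshold, and was called without WT-MyoD replicate 1 (-0.24, adjusted p = 0.000825), with RLE size factors (adjusted p = 0.0404), with no filter (adjusted p = 0.048) and with limma-voom (adjusted p = 0.0497). Without WT-MyoD replicate 1 it was also called higher than untreated with WT-MyoD (0.18, adjusted p = 0.00993).

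Of the TRIM proteins, TRIM5 recognises retroviral capsids, TRIM22 restrains transcription of HIV, and TRIM14 is an adaptor at mitochondria. TRIM22 had 70.2 and 72.1 CPM in VP64-MyoD, 129 and 122 CPM in WT-MyoD and 73.8 and 77.2 CPM in untreated libraries. TRIM5 had 22.5 and 20.8 CPM in VP64-MyoD, 33.4 and 33.5 CPM in WT-MyoD and 17.2 and 17.4 CPM in untreated libraries. TRIM22 was near its untreated level with VP64-MyoD (-0.09 ± 0.06, edgeR adjusted p = 0.25), whereas TRIM5 was higher in both groups, by 0.33 ± 0.08 with VP64-MyoD and 0.95 ± 0.08 with WT-MyoD. TRIM14 was higher by 1.09 ± 0.10 with VP64-MyoD and by 1.52 ± 0.10 with WT-MyoD. Its direct difference between the MyoD forms was -0.43 ± 0.09, or -0.28 without VP64-MyoD replicate 2, and NANS lies across its exons on the opposite strand.

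Of the secreted members, LGALS3BP, a glycoprotein that binds galectins, had 62.5 and 62.2 CPM in VP64-MyoD, 91.4 and 80.3 CPM in WT-MyoD and 38.1 and 38.7 CPM in untreated libraries. The groups did not overlap, and its log2 fold change for VP64-MyoD over WT-MyoD was -0.46 ± 0.07 (edgeR adjusted p = 4.2e-05). CXCL10 and CXCL11, chemokines that draw T cells through CXCR3, each had 1 read pair in VP64-MyoD replicate 1 and none in the other 5 libraries. A count of 0 allows a level of up to 3 read pairs, or 0.106 to 0.146 CPM in these libraries, counting error only. No difference in them was detectable at this depth.

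The other effectors include IFI44 and IFI44L, 2 related cytoplasmic proteins, SAMD9 and SAMD9L, which restrict poxviruses and curb translation, XAF1, an antagonist of the apoptosis inhibitor XIAP, the nuclear body protein SP110, the leucine zipper protein IFI35, EPSTI1, and RTP4, a chaperone of receptors. IFI44L had 2.88 and 1.56 CPM in VP64-MyoD, 25.1 and 24.6 CPM in WT-MyoD and 1.44 and 1.05 CPM in untreated libraries. WT-MyoD cells held 11.3 times the level of VP64-MyoD cells. The rise with VP64-MyoD over untreated cells, 0.81 ± 0.25 (edgeR adjusted p = 0.011), rested on single libraries, since without VP64-MyoD replicate 1 it was 0.32 (adjusted p = 0.27) and without untreated replicate 2 it was 0.60 (adjusted p = 0.113). DESeq2 (adjusted p = 0.0669) and limma-voom (adjusted p = 0.0505) did not call it. IFI44 had 3.7 and 3.01 CPM in VP64-MyoD, 13.4 and 12.2 CPM in WT-MyoD and 1.68 and 1.77 CPM in untreated libraries. SAMD9 had 55.1 and 53.8 CPM in VP64-MyoD, 98.4 and 98.4 CPM in WT-MyoD and 71.7 and 76 CPM in untreated libraries. SAMD9L had 56.4 and 56.1 CPM in VP64-MyoD, 102 and 110 CPM in WT-MyoD and 65.5 and 69.4 CPM in untreated libraries. Both SAMD9 genes lay below untreated cells with VP64-MyoD (-0.44 ± 0.06 for SAMD9 and -0.26 ± 0.07 for SAMD9L) and above them with WT-MyoD, with no overlap of groups. XAF1, singled out as not called between the MyoD forms, had 56.1 and 53.4 CPM in VP64-MyoD, 52.4 and 53.4 CPM in WT-MyoD and 34.2 and 36.4 CPM in untreated libraries, so that the MyoD groups overlapped and both lay above untreated cells. EPSTI1 was higher in both groups, by 0.91 ± 0.22 with VP64-MyoD and 2.50 ± 0.20 with WT-MyoD. IFI35 and SP110 were called higher with WT-MyoD (0.91 ± 0.09 for IFI35 and 0.48 ± 0.10 for SP110) and not called with VP64-MyoD. RTP4 was lower in VP64-MyoD than in WT-MyoD cells by -1.13 ± 0.40 (edgeR adjusted p = 0.025), a call lost by DESeq2 (adjusted p = 0.0674) and without any 1 of those 4 libraries (adjusted p between 0.0608 and 0.121), and higher with WT-MyoD than in untreated cells (1.30 ± 0.41, adjusted p = 0.015), a call lost without untreated replicate 2 (adjusted p = 0.116).

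**Figure D3:**
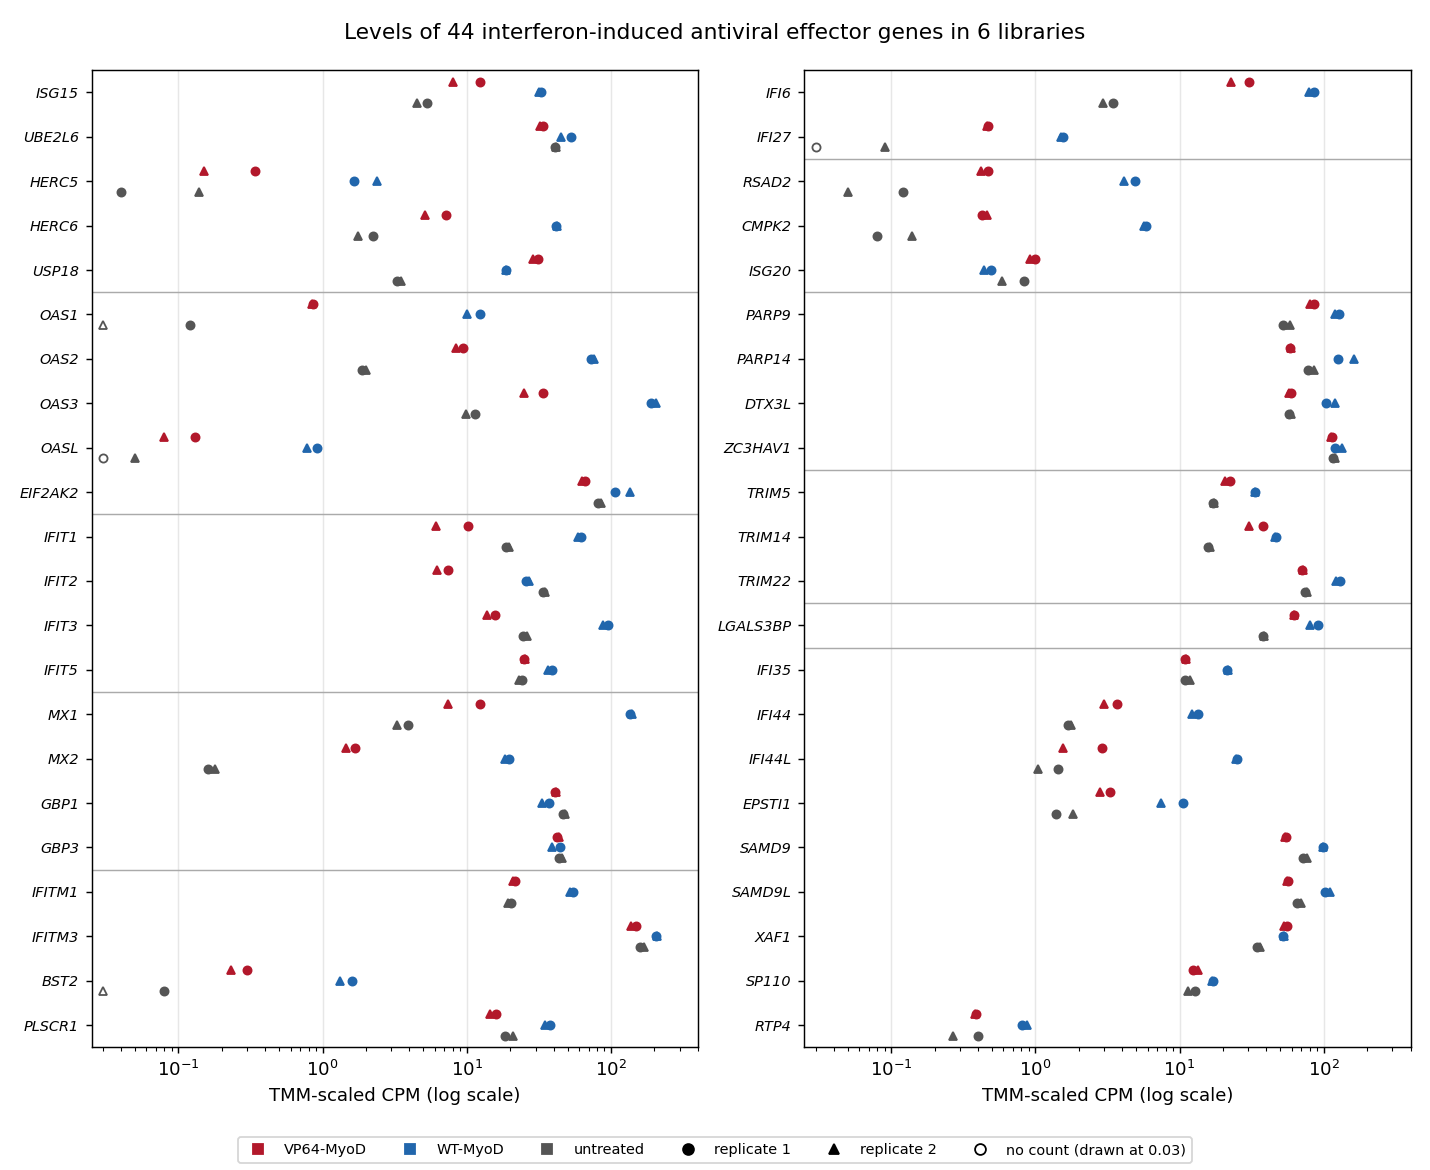
TMM-scaled CPM (horizontal axis, log scale) of the 44 members in each of the 6 libraries, with circles for replicate 1, triangles for replicate 2, colours for the group and lines between role classes. WT-MyoD points lie to the right of the other groups for most members, at 190 and 204 CPM for OAS3, while the VP64-MyoD points of IFIT1, IFIT2 and IFIT3 lie to the left of the untreated ones.

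Members that were rare in untreated cells and members that were abundant there differed in their counts of calls. To compare genes, CPM were divided by the transcript lengths of GENCODE, which were known for 43 members tested. Of the 14 members under 1 CPM per kb in untreated cells, which included OAS1, OAS2, MX2, RSAD2 and HERC6, 10 were higher with VP64-MyoD (median log2 2.08) and 13 with WT-MyoD (median 5.05). These 14 include the 8 members that passed the filter through the MyoD groups. Of the 15 members between 1 and 10 CPM per kb, among them ISG15, MX1 and IFIT1, 8 were higher and 3 lower with VP64-MyoD (median 0.33), and 14 were higher and 1 lower with WT-MyoD (median 1.52). Of the 14 members at 10 CPM per kb or more, among them IFITM3, EIF2AK2 and IFIT3, 3 were higher and 7 lower with VP64-MyoD (median -0.14), and 11 were higher and 1 lower with WT-MyoD (median 0.56). Of all features at any level, 33.0% were higher and 30.0% lower with VP64-MyoD, and 25.7% and 22.2% with WT-MyoD. Shares among features of like untreated level were not computed. Since the untreated level is also the denominator of these fold changes, this is a description only.

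Most members were higher in the first than in the second VP64-MyoD library. In VP64-MyoD cells replicate 1 was higher than replicate 2 in 36 of the 44 members (median log2 ratio 0.11), against 50.1% of all features. ISG15, IFIT1, MX1, IFI6 and IFI44L were among those with a visible gap. In WT-MyoD cells replicate 1 was higher in 26 of the 44 and in untreated cells in 14 of the 44, against 51.0% and 50.8% of all features.

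Upstream of the effectors, RNA of the interferons themselves was barely detected. Of 21 interferon genes listed, 15 had no read pair in any library, IFNB1 and IFNG among them, and only IFNE passed the filter. IFNE, an interferon of epithelia, had 0.26 and 0.08 CPM in VP64-MyoD, 0.18 and 0.05 CPM in WT-MyoD and 0.32 and 0.55 CPM in untreated libraries. It was lower with WT-MyoD than in untreated cells (-1.81 ± 0.68, edgeR adjusted p = 0.04). With VP64-MyoD it was also below untreated cells but not called (-1.38 ± 0.65, edgeR adjusted p = 0.076). Read pairs of IFNE were few, 6 and 2 with VP64-MyoD, 5 and 1 with WT-MyoD and 8 and 12 in untreated libraries. The untested interferons reached at most 4 read pairs in a library, for IFNA1 in untreated replicate 1.

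Of the 9 receptor and kinase genes, 1 was higher and 5 were lower with VP64-MyoD, and likewise with WT-MyoD, relative to untreated cells. Set against WT-MyoD, VP64-MyoD had 1 higher and 3 lower. Of all features tested, 33.0% were higher and 30.0% lower with VP64-MyoD than untreated, and 25.7% and 22.2% with WT-MyoD. Between VP64-MyoD and WT-MyoD, 28.3% were higher and 28.2% lower. Counts of this list and those below that lie near these shares are not results about the lists. IFNAR2, the receptor chain that USP18 binds, had 26.5 and 27.6 CPM in VP64-MyoD, 13.9 and 13.9 CPM in WT-MyoD and 16.5 and 12.7 CPM in untreated libraries, and was higher in VP64-MyoD than in WT-MyoD cells by 0.96 ± 0.11 (edgeR adjusted p = 1.6e-06). JAK1 was lower with both forms than in untreated cells, by -0.42 ± 0.06 with VP64-MyoD and -0.51 ± 0.06 with WT-MyoD. IL10RB, a chain shared by the interferon-lambda receptor, was lower by -0.60 ± 0.07 with VP64-MyoD and -0.34 ± 0.07 with WT-MyoD.

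Of 20 sensor and adaptor genes, 17 were tested. Relative to untreated cells, 3 were higher and 8 lower with VP64-MyoD, with WT-MyoD 8 were higher and 1 lower, and VP64-MyoD was lower than WT-MyoD in 12. None of the 17 was higher in VP64-MyoD than in WT-MyoD cells by edgeR (0 at an unadjusted p under 0.05, 0 by DESeq2 and 0 by limma-voom). RIGI, the cytosolic sensor RIG-I, had 31 and 28.5 CPM in VP64-MyoD, 61.2 and 67.6 CPM in WT-MyoD and 21.2 and 21.6 CPM in untreated libraries, with the same calls in the 3 comparisons as 19 of the 44 members. DHX58, its relative LGP2, had 6.58 and 6.22 CPM in VP64-MyoD, 24.5 and 25.9 CPM in WT-MyoD and 12.9 and 13.4 CPM in untreated libraries. TLR4, the receptor for lipopolysaccharide, had 13.5 and 12.8 CPM in VP64-MyoD, 42.4 and 41 CPM in WT-MyoD and 69.1 and 73.2 CPM in untreated libraries.

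Of the 11 transcription factors of the pathway, 9 were tested. Relative to untreated cells, 2 were higher and 3 lower with VP64-MyoD, with WT-MyoD 7 were higher and 1 lower, and VP64-MyoD was lower than WT-MyoD in 6. None of the 9 was higher in VP64-MyoD than in WT-MyoD cells by edgeR (0 at an unadjusted p under 0.05, 0 by DESeq2 and 0 by limma-voom). STAT2, a subunit of the factor that binds the response element, had 120 and 112 CPM in VP64-MyoD, 261 and 285 CPM in WT-MyoD and 218 and 233 CPM in untreated libraries. It was lower than untreated with VP64-MyoD (-0.96 ± 0.07, edgeR adjusted p = 7.6e-09) and slightly higher with WT-MyoD (0.28 ± 0.07, adjusted p = 0.0033), the same pattern of calls as IFIT1 and EIF2AK2. IRF9, which STAT2 binds, was also called lower in VP64-MyoD than in WT-MyoD cells (-0.45), and was chosen for mention after its value was seen. BATF2, an interferon-induced leucine zipper factor, had 2.54 and 2.4 CPM in VP64-MyoD, 6 and 5.01 CPM in WT-MyoD and 0.80 and 0.59 CPM in untreated libraries. STAT3, the factor of interleukin-6 signalling, was lower than untreated with both forms, by -0.73 ± 0.06 with VP64-MyoD and -0.63 ± 0.06 with WT-MyoD.

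Of 11 negative regulators tested, 7 were higher and 1 lower with VP64-MyoD than in untreated cells, 5 were higher and 2 lower with WT-MyoD, and between VP64-MyoD and WT-MyoD 2 were higher and 2 lower. TNFAIP3 (A20), a deubiquitinase that restrains NF-kB, was higher by 0.73 ± 0.10 with VP64-MyoD and 1.29 ± 0.10 with WT-MyoD. CYLD, a deubiquitinase of the same pathway, was higher by 0.53 ± 0.06 with VP64-MyoD and 0.67 ± 0.06 with WT-MyoD. SOCS2, a suppressor of cytokine signalling, was higher with WT-MyoD (1.46 ± 0.16) and not called with VP64-MyoD (0.32 ± 0.18).

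Of 45 other interferon-stimulated genes, 14 were higher and 15 lower with VP64-MyoD than in untreated cells (median log2 0.05). Both counts lay near the 33.0% and 30.0% of all features. With WT-MyoD, 25 were higher and 7 lower (median 0.41), against 25.7% and 22.2% of all features. In VP64-MyoD relative to WT-MyoD cells, 4 were higher and 21 lower (median -0.22, against -1.27 for the members). Of all features, 28.3% were higher and 28.2% lower there. CD274, the T cell inhibitory ligand PD-L1, had 6.4 and 5.57 CPM in VP64-MyoD, 19.2 and 20.9 CPM in WT-MyoD and 1.6 and 2.05 CPM in untreated libraries. DDX60, a helicase of the RIG-I pathway, had 23.7 and 22.6 CPM in VP64-MyoD, 45.7 and 47.4 CPM in WT-MyoD and 12.8 and 14.7 CPM in untreated libraries. WARS1, a tryptophanyl-tRNA synthetase, went the other way, with 343 and 357 CPM in VP64-MyoD, 192 and 173 CPM in WT-MyoD and 469 and 479 CPM in untreated libraries.

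Of the genes that interferon-gamma preferentially induces, 8 of 12 were tested. Against untreated cells, 1 was higher and 2 were lower with VP64-MyoD, and 2 were higher and 1 lower with WT-MyoD. VP64-MyoD was lower than WT-MyoD in 3 and higher in 0 by edgeR (1 at an unadjusted p under 0.05, 0 by DESeq2 and 0 by limma-voom). CD74, the invariant chain of class II antigen presentation, had 0.17 and 0.11 CPM in VP64-MyoD, 1.66 and 1.12 CPM in WT-MyoD and 0.36 and 0.55 CPM in untreated libraries. ICAM1, an adhesion molecule, was lower than untreated with both, by -1.26 ± 0.09 with VP64-MyoD and -0.60 ± 0.09 with WT-MyoD. The transcription factor IRF1 was higher with both, by 0.33 ± 0.08 with VP64-MyoD and 0.32 ± 0.08 with WT-MyoD.

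Of the NF-kB inflammatory genes, 17 of 21 were tested, of which 6 were higher and 8 lower with VP64-MyoD, 8 higher and 3 lower with WT-MyoD, and 4 higher and 10 lower in VP64-MyoD than in WT-MyoD cells. IL6, the cytokine interleukin-6, had 3.44 and 3.28 CPM in VP64-MyoD, 1.34 and 1.85 CPM in WT-MyoD and 20 and 21.1 CPM in untreated libraries, far below untreated cells in both. SOD2, a mitochondrial superoxide dismutase, had 50.5 and 50.1 CPM in VP64-MyoD, 177 and 203 CPM in WT-MyoD and 111 and 125 CPM in untreated libraries. PTGS2, the prostaglandin synthase COX-2, was highest in VP64-MyoD cells, with 15.9 and 15 CPM, against 5.79 and 4.87 CPM in WT-MyoD and 4.61 and 4.82 CPM in untreated libraries.

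**Figure D4:**
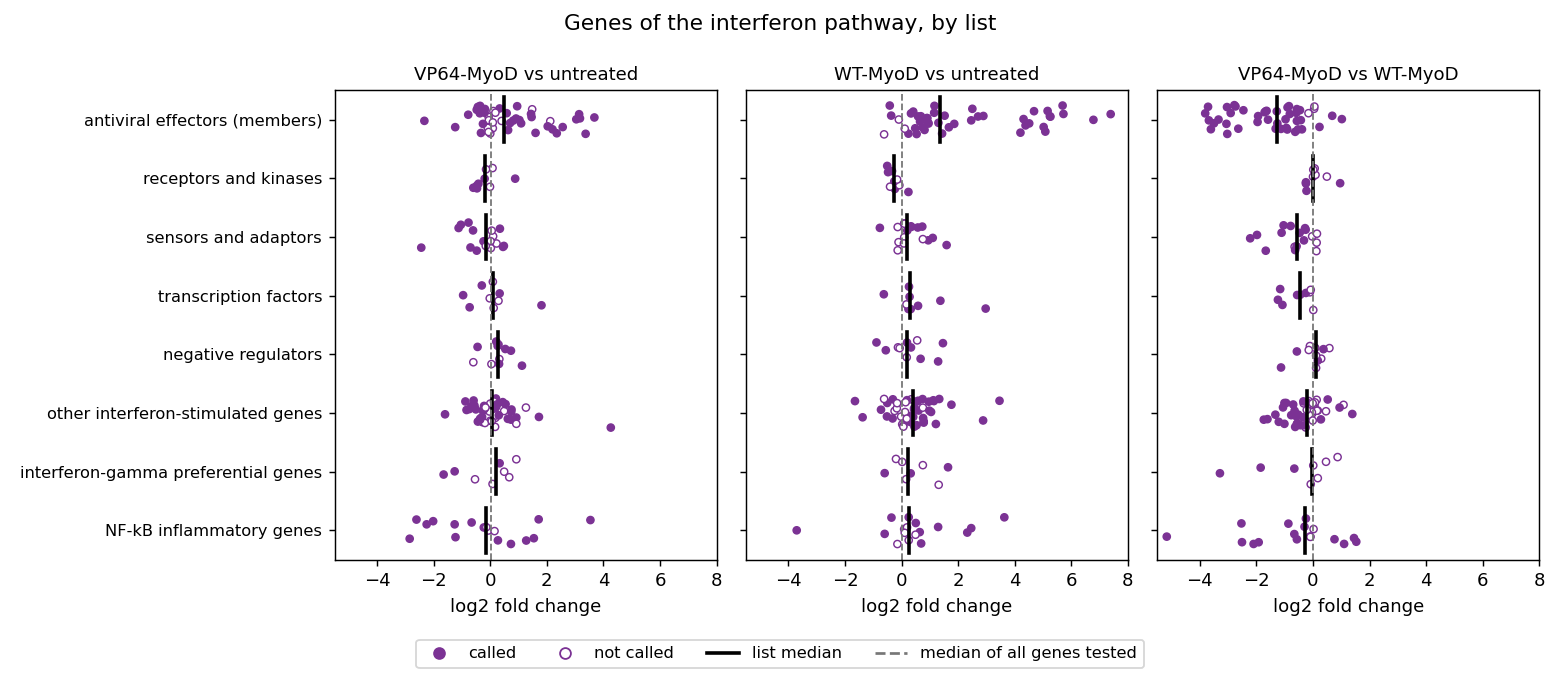
Log2 fold change (horizontal axis) of each tested gene of the members and of 7 other lists of the interferon pathway in the 3 comparisons, with 1 point per gene, filled where called, a bar at each list's median and a dashed line at the median of all features. The members' median lies at -1.27 in the right panel, and those of the other lists lie nearer to the dashed line.

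Markers of blood cells, which respond strongly to interferon, were looked at beside these results. The 6 T, B and NK cell markers summed to 0.74 to 1.72 CPM in all libraries, and CD3E and CD3D were at 0. The 5 plasmacytoid dendritic cell markers summed to 194 to 237 CPM, nearly all of it TCF4, a factor that fibroblasts also express, and CLEC4C and IRF8 were at 0. The 6 monocyte and macrophage markers summed to 47.1 and 48.5 CPM in VP64-MyoD, 178 and 182 CPM in WT-MyoD and 69.4 and 71.1 CPM in untreated libraries, and so were highest in WT-MyoD cells. Most of this was CD68, a lysosomal protein that fibroblasts also make, at 42.9 and 44.7 CPM in VP64-MyoD, 175 and 178 CPM in WT-MyoD and 66 and 67.6 CPM in untreated libraries. CD14, a co-receptor for lipopolysaccharide, had 0.34 and 0.19 CPM in VP64-MyoD, 1.48 and 1.75 CPM in WT-MyoD and 0.68 and 0.64 CPM in untreated libraries, and passed the test in all 3 comparisons. CSF1R, the receptor of macrophage colony-stimulating factor, was lowest in WT-MyoD cells, at 0.77 and 0.92 CPM in VP64-MyoD, 0.25 and 0.15 CPM in WT-MyoD and 0.48 and 0.59 CPM in untreated libraries. ITGAM, an integrin chain of myeloid cells, had 0.52 and 0.38 CPM in VP64-MyoD, 0.11 and 0.00 CPM in WT-MyoD and 0.04 and 0.05 CPM in untreated libraries. PTPRC, the leukocyte marker CD45, stood at 1.5 and 1.68 CPM in VP64-MyoD, 0.74 and 1.12 CPM in WT-MyoD and 1.32 and 1.18 CPM in untreated libraries. The part of CD68-bearing cells in the members' values was not tested. The 5 endothelial markers summed to 8.17 to 11.6 CPM over all libraries, and 6 keratinocyte markers to 17.8 to 18.1 CPM in VP64-MyoD, 7.59 to 8.76 CPM in WT-MyoD and 5.81 to 6.32 CPM in untreated libraries. Nearly all of the keratinocyte sum was TP63 and KRT10. Means of TP63 were 9.56 CPM in VP64-MyoD, 3.34 CPM in WT-MyoD and 0.31 CPM in untreated libraries, and those of KRT10 were 7.68, 4.32 and 5.26 CPM. The keratins KRT5 and KRT14 were near 0, and KRT1 was at 0.

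The authors' deposited table of comparisons, which holds 3135 transcripts, lists 28 transcripts of 16 members. All 28 have the same sign there as the gene in the counts, for both MyoD forms over untreated cells. That table comes from the same libraries and holds only transcripts with small adjusted p-values. The shared sign was thus largely set in advance and is no independent check. In the authors' deposited table MX1 has 3 transcripts, at log2 fold changes between 0.92 and 2.00 for VP64-MyoD and between 4.69 and 5.83 for WT-MyoD over untreated cells. The authors' deposited table gives IFI6 3 transcripts between 2.93 and 3.14 for VP64-MyoD and between 4.57 and 4.76 for WT-MyoD.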

How the data were processed

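Polyadenylated RNA was sequenced from untreated human dermal fibroblasts and from fibroblasts with inducible VP64-MyoD or WT-MyoD, in 2 libraries per group. The submitters' processing notes name the hg19 build, Bowtie 0.12.9, CASAVA and DESeq 1.10.1. Whole-number counts per RefSeq transcript, not normalized, make up the deposited count table. Every deposited count is even, so each read pair counts as 2. A second deposited table, of the authors' comparisons, has per the file headers a signal for each group (a mean over its libraries, normalized by the authors), fold ratios and log2 fold changes over untreated cells, and adjusted p-values, at most 9.82e-06 for WT-MyoD and 9.95e-06 for VP64-MyoD. It was used for signs and folds of members, with no test.

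Gene symbols were assigned by accession to 39324 of 40710 transcript rows through RefSeq and to 517 through GENCODE, and 868 had none and stayed features of their own (0.601% to 0.744% of a library). Ribosomal RNA genes held 0.663% to 1.80% of the counts. Rows were summed per symbol, and the 46 members had 89 rows. Libraries do not mark strand, per the labels' protocols, and 13 members share exonic bases with a gene on the other strand.

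edgeR 4.0.16 in R 4.3.3 fitted the 6 libraries together (TMM, filterByExpr with minimum count 10 and minimum total 15, quasi-likelihood test, 3 residual degrees of freedom), with calls at a Benjamini-Hochberg adjusted p under 0.05. The fit was also run on counts simulated from means and spreads estimated in these data. Such a run checks the code and cannot show how well the model describes the libraries. Libraries of a group are biological duplicates, per the design text, but share 1 line, and p-values therefore cover the spread between cultures only. Replicates differed by more than sampling noise (chi-square per degree of freedom 5.6 in VP64-MyoD, 12.8 in WT-MyoD and 3.29 in untreated cells).

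Alternatives were DESeq2 1.42.0, limma-voom 3.58.1, RLE size factors, no filter, a minimum count of 50, halved counts, 2 groups alone, a replicate block and leaving out each library. The count over members that passed the filter in untreated libraries alone was added after seeing the data. The members and lists were chosen with earlier results of these data known. Levels per library were given for the 2 members of each role class with the smallest adjusted p between VP64-MyoD and WT-MyoD, for members called lower than untreated and for members under the filter, and elsewhere for up to 3 genes per list with the smallest adjusted p. Members named beyond that rule are marked in the text. Promoter sequences are RefSeq's, on GRCh38.p14. They are not on the build of the counts.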

Additional observations from a re-analysis of the deposited data

How the results depend on the processing

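No member changed direction in a called comparison under any of the 14 alternatives of the fit. Of the 132 member results, 119 kept their side of the threshold under every alternative in which they were tested. OASL, ISG20, RTP4 and, for VP64-MyoD over untreated, HERC5 were tested in only 12 or 13 of them, since the filter removed them elsewhere. The calls that changed are given beside their genes and, for the block, below. The median log2 fold change of the members, VP64-MyoD over untreated, was 0.61 with no filter on low counts, 0.59 with the stricter filter and 0.36 with the 2 groups alone, against 0.49, and 0.33 to 0.54 with 1 library left out. The median for WT-MyoD over untreated was 1.23 with no filter, against 1.37, and 1.31 to 1.48 with 1 library left out. That for VP64-MyoD over WT-MyoD was -1.30 to -1.21 with 1 library left out. With 1 library left out, members higher in VP64-MyoD than in WT-MyoD cells numbered 1 to 3 and lower members 37 to 38. In the same fits 19 to 22 members were higher and 9 to 11 lower with VP64-MyoD than untreated, and 37 to 39 were higher and 2 to 3 lower with WT-MyoD. Where a library was left out, the remaining one of its group was assumed to vary like the other groups. Under the no-filter, strict and 2-group settings the set of members tested changes by construction, since the filter differs or is run anew. With VP64-MyoD and untreated cells alone, HERC5 and OASL did not pass the filter. For the other settings the cause was not tested. Fitting the replicate number as a block gave 21 higher and 11 lower members with VP64-MyoD, 39 and 2 with WT-MyoD, and 3 and 39 between VP64-MyoD and WT-MyoD, where ZC3HAV1 was then called lower (adjusted p = 0.0499). Over all features, differences between replicate 1 and replicate 2 correlated between groups at -0.0237 to 0.066. No strong pairing by number was thus seen, while a weak one could be hidden by sampling noise. Depth limits HERC5, OASL, OAS1, MX2, BST2, IFI27, RSAD2, CMPK2, CXCL10 and CXCL11, which had few or no read pairs in untreated libraries. With both untreated libraries the OAS1 value for WT-MyoD was 7.39, with replicate 1 left out it was 12.07 and with replicate 2 left out 6.50.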
